A study of Homo sapiens with 30 samples.

Results

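The mitochondrial ribosomal protein genes are the nuclear genes for the protein subunits of the ribosome inside mitochondria. They were taken as all protein-coding genes of the deposited resistance table whose symbol begins with MRPL or MRPS, without hyphenated read-through names, and were joined by gene ID to the table of the 4 lymphoma lines. This gave 78 genes of the 60656 listed, or of 19361 that the symbol column marks as protein-coding. Of these, 51 encode proteins of the large subunit and 26 of the small subunit. MRPS30 and MRPS18A are counted with the large subunit, where their proteins sit despite the names. MRPS36 belongs to neither, since its product is now known as KGD4, a subunit of the oxoglutarate dehydrogenase complex.

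The mitochondrial ribosome translates only the mRNAs made from mitochondrial DNA, which encode core membrane subunits of the respiratory chain and of ATP synthase. Its rRNAs are transcribed inside the organelle, whereas every one of its proteins is made in the cytosol from nuclear mRNA and imported. The small subunit holds the mRNA and the decoding site. The large subunit forms the peptide bond and guides the new protein toward the inner membrane. Compared with the bacterial ribosome it has lost rRNA and gained many proteins that bacteria lack. Doxorubicin, an anthracycline, poisons topoisomerase II in the nucleus and also reaches mitochondria.

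RNA sequencing covered established human lines of diffuse large B-cell lymphoma in 30 libraries, 3 for each of 10 groups, described by the labels as independent experiments. OCI-LY3, HT, OCI-LY19 and SUDHL5 cells were each harvested after 24 h of 0.2 µM doxorubicin and, as the untreated group, at 0 h. Because no untreated library was taken at 24 h, the drug and culture time cannot be told apart. OCI-LY19R is 1 resistant derivative, held in 20 nM doxorubicin until a week before harvest, and it was set against OCI-LY19S, its sensitive parent. Both OCI-LY3 and HT were grown in more serum than the OCI-LY19 and SUDHL5 cultures, per the labels. The titles of treated libraries carry the drug name beside the word ctrl, and they were taken as treated from the treatment label.

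Library totals, read back from the deposited values, were 16067405 to 38337869 reads in the 4 lines. OCI-LY19R had 33439107, 26419983 and 23782084 reads, and OCI-LY19S had 18354091, 20558372 and 121769119. OCI-LY19S replicate 1 stood apart from its 2 mates, and the SUDHL5 replicates differed from each other less than those of other groups, though by more than sampling noise (chi-square per gene of 1.955 to 5.511, against 7.138 or more). The 10 B-lineage marker genes summed to 811.5 to 978.8 FPKM (reads scaled to gene length and to library total) in OCI-LY3 with doxorubicin, against 1435 to 1717 FPKM untreated, and all 10 fell (limma adjusted p below 0.05; median log2 difference -0.60). In HT it was 1075 to 1116 FPKM with doxorubicin, against 1418 to 1509 FPKM untreated, with 7 falls and 1 rise (-0.57). OCI-LY19 gave 400.2 to 405.3 FPKM with doxorubicin, against 440 to 490.1 FPKM untreated, and SUDHL5 gave 1385 to 1419 FPKM, against 1185 to 1193 FPKM. Summed T and NK cell markers reached 17.6 to 19.8 FPKM in SUDHL5 with doxorubicin, against 4.91 to 5.44 FPKM in untreated SUDHL5. Summed myeloid markers reached 20.1 to 33.2 FPKM in OCI-LY19 with doxorubicin, against 6.03 to 9.83 FPKM in untreated OCI-LY19. The part of these marker shifts in the results was not tested. In bulk RNA, fewer cells of a kind and less RNA per cell cannot be told apart.

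Across groups, the level of a mitochondrial ribosomal protein gene was typically moderate. The median over the 10 group means ran from 0.0109 FPKM for MRPL53 to 104 FPKM for MRPL51, with a middle value of 18.7 FPKM. It lay below 10 FPKM for 21 genes, between 10 and 100 FPKM for 56 and above 100 FPKM for 1. The highest after MRPL51 were MRPS34 at 86.0 FPKM, MRPL3 at 60.2 FPKM, MRPL18 at 59.99 FPKM and MRPS26 at 56.5 FPKM. Most of these proteins enter the ribosome in equal number, whereas their mRNA levels per length spanned a wide range.

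**Figure D1:**
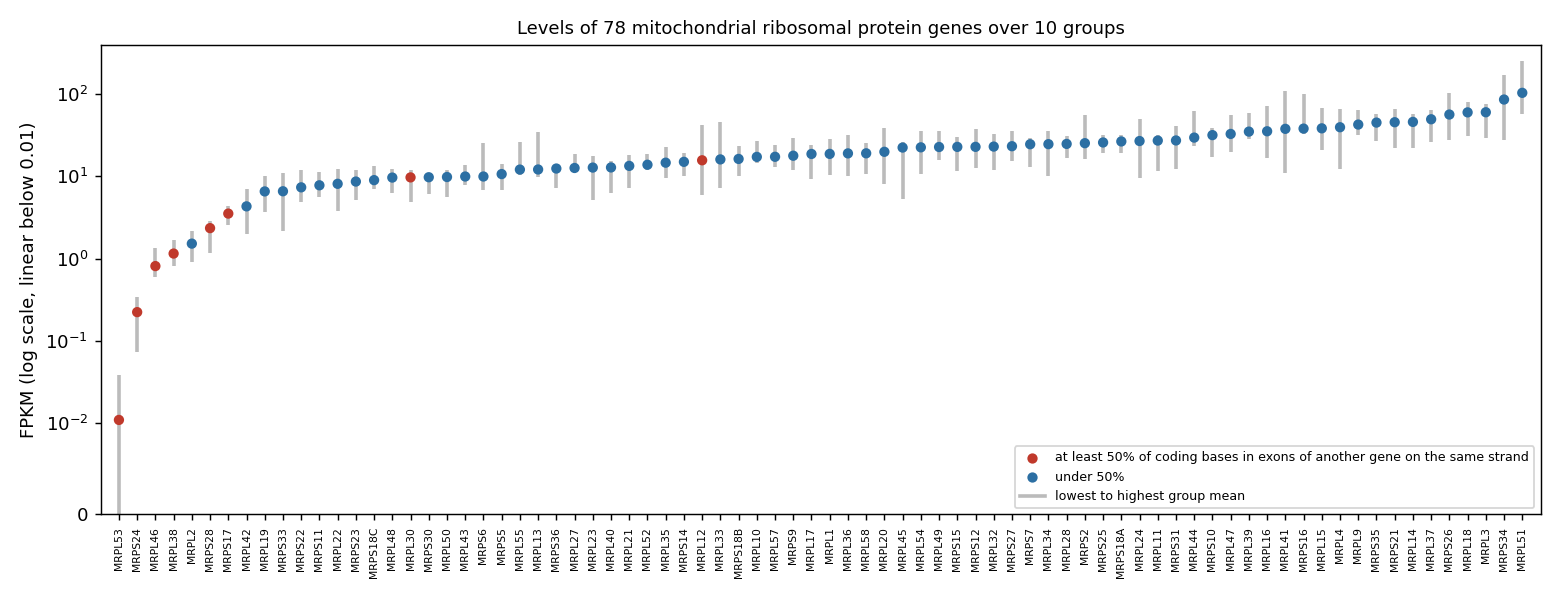
FPKM of the 78 genes (log scale, linear below 0.01), sorted by the median over 10 group means (points); the grey bar spans the lowest to the highest group mean. Red points mark the 8 genes with at least 50% of their coding bases in same-strand exons of another gene; 5 of the 6 lowest genes are among them.

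After doxorubicin, the summed level of the mitochondrial ribosomal protein mRNAs was lower on average in all 4 lines. It was 1520, 1596 and 1665 FPKM in OCI-LY3 with doxorubicin, against 1868, 1734 and 2160 FPKM untreated. In OCI-LY19 it was 1207, 1401 and 1155 FPKM with the drug, against 1595, 1779 and 1788 FPKM untreated. Neither line had overlapping libraries. SUDHL5 gave 1716, 1765 and 1756 FPKM with doxorubicin, against 1953, 1993 and 1952 FPKM untreated, also without overlap. HT gave 1940, 1805 and 1796 FPKM with doxorubicin, against 2092, 1932 and 2054 FPKM untreated, and here 1 treated library lay above the lowest untreated one. The share of all FPKM was 0.423% in OCI-LY19 with doxorubicin, against 0.578% untreated, the widest gap of the 4 lines. The 13 mRNAs that the mitochondrial ribosome translates summed to 69729 ± 3909 FPKM in SUDHL5 with doxorubicin, against 55790 ± 1455 FPKM untreated (SD, n = 3 each). In OCI-LY3 they summed to 52348 ± 1903 FPKM with doxorubicin, against 43892 ± 2059 FPKM untreated (SD, n = 3 each). How the direction of these mRNAs depends on scale is given with their counts.

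**Figure D2:**
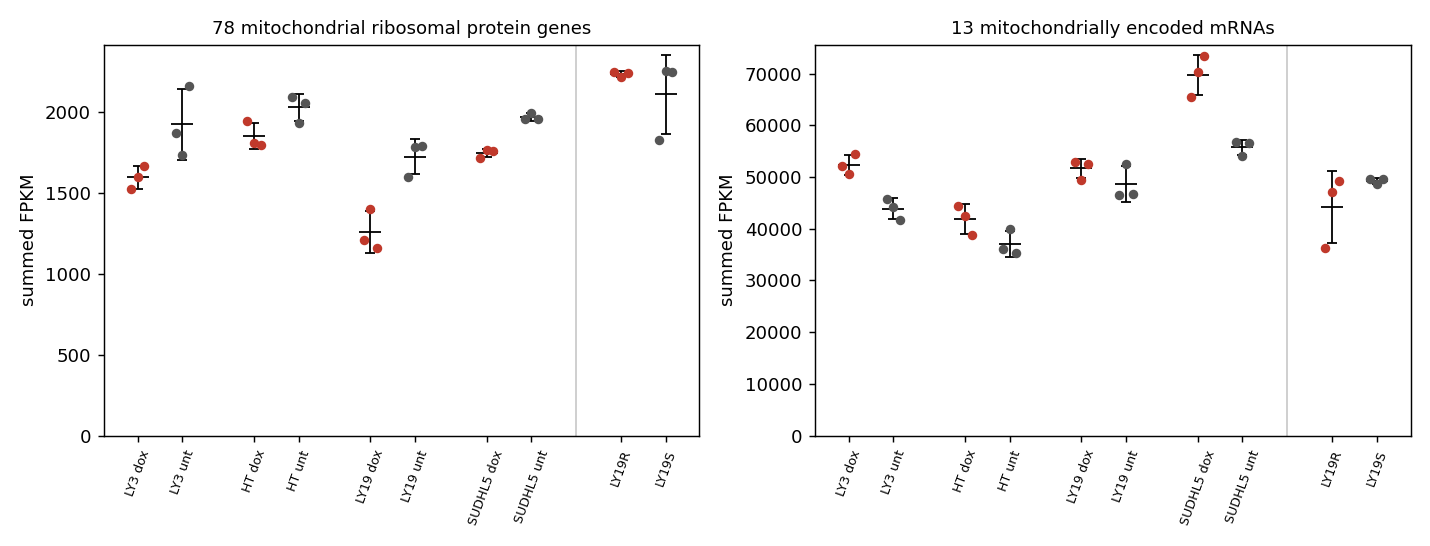
Summed FPKM per library of the 78 mitochondrial ribosomal protein genes and of the 13 mRNAs encoded by mitochondrial DNA, with doxorubicin left of untreated in each line and OCI-LY19R left of OCI-LY19S. Ribosomal protein sums are lower with doxorubicin without overlap in OCI-LY3, OCI-LY19 and SUDHL5.

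Gene by gene, falls outnumbered rises in every line, while among all genes rises outnumbered falls in 3 of the 4. That all-gene split depended on scale: rises were 73.9% of all calls in OCI-LY3 as deposited and 50.9% with quantile normalization, and 59.3% as deposited and 44.7% with quantile normalization in OCI-LY19. The test was limma on log2(FPKM + 1), with p adjusted by the Benjamini-Hochberg method over all 17645 genes tested and 0.05 as the threshold. It reached 76 of the 78 genes, since MRPL53 and MRPS24 did not reach 1 FPKM in 3 libraries of either table. In OCI-LY19, 52 of 76 genes fell (68.4%), against 23.7% of all genes, and 4 rose (5.26%), against 34.5% of all genes. In OCI-LY3, 33 fell (43.4%), against 14.3% of all genes, and 12 rose (15.8%), against 40.4%. In SUDHL5, 29 fell (38.2%), against 19.9% of all genes, and 5 rose (6.58%), against 18.6%. HT had the fewest falls, 16 (21.1%), against 9.41% of all genes, with 8 rises (10.5%), against 22.9%. Because the members are mostly well expressed, the same counts were taken over genes with at least 5 FPKM in 3 libraries. Of 71 such members, 51 fell in OCI-LY19 (71.8%, against 33.7% of all such genes), 31 in OCI-LY3 (43.7%, against 20.2%), 31 in SUDHL5 (43.7%, against 27.2%) and 16 in HT (22.5%, against 13.9%).

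The median log2 difference of the 76 genes was -0.46 in OCI-LY19, -0.18 in OCI-LY3, -0.16 in SUDHL5 and -0.05 in HT. The median over all genes tested was 0.08 in OCI-LY19, 0.16 in OCI-LY3, 0.001 in SUDHL5 and 0.06 in HT. Relative to that median of all genes, the members stood at -0.54 in OCI-LY19, -0.34 in OCI-LY3, -0.16 in SUDHL5 and -0.11 in HT. The all-gene shift of OCI-LY3 depended on scale: it was 0.006 with median-of-ratios scaling, where members stood at -0.44 relative to all genes, and in each line the members' median stayed below that of all genes as deposited, as TPM, and with median-of-ratios and quantile scaling. Called falls of more than 0.5 on the log2 scale were seen in 36 genes in OCI-LY19 (47.4%, against 12.6% of all genes) and 17 in OCI-LY3 (22.4%, against 7.06%). In SUDHL5 there were 5 (6.58%, against 7.67% of all genes) and in HT 2 (2.63%, against 3.07%), shares no higher than those of all genes. Treated libraries lay wholly below untreated ones for 50 genes in OCI-LY19 (all genes 24.5%), 38 in OCI-LY3 (14.9%), 46 in SUDHL5 (30.6%) and 18 in HT (12.5%). They lay wholly above for 5 genes in OCI-LY19 (all genes 36.7%), 11 in OCI-LY3 (42.5%), 11 in SUDHL5 (29.3%) and 10 in HT (29.8%).

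**Figure D3:**
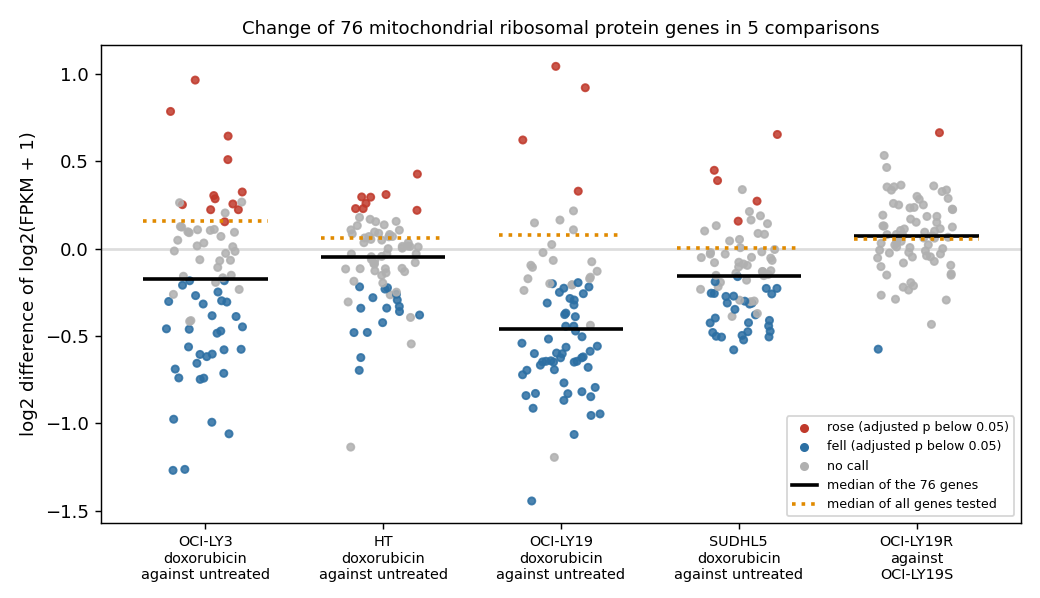
Log2 difference of log2(FPKM + 1) for each of the 76 tested genes in the 5 comparisons; red points rose, blue points fell and grey points were not called at adjusted p of 0.05. The black line is the median of the genes and the orange dotted line that of all genes tested, and the 2 lie farthest apart in OCI-LY19, at -0.46 and 0.08.

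Falls reached both subunits. Of all genes tested, 23.7% fell and 34.5% rose in OCI-LY19, and 14.3% fell and 40.4% rose in OCI-LY3. In HT 9.41% of all genes fell and 22.9% rose, and in SUDHL5 19.9% fell and 18.6% rose. In OCI-LY19, 33 of 50 large-subunit genes fell (median log2 difference -0.55) and 18 of 25 small-subunit genes fell (-0.29). The summed large-subunit level over the summed small-subunit level was 2.11 ± 0.0178 in OCI-LY19 with doxorubicin, against 1.93 ± 0.0338 untreated (SD, n = 3 each), and no libraries overlapped. The ratio weights genes by level, whereas the medians above weight each gene alike and lay lower for the large subunit. MRPS34, of the small subunit, read 25.1, 33.6 and 24.2 FPKM in OCI-LY19 with doxorubicin, against 59.8, 97.2 and 75.8 FPKM untreated. MRPL44, of the large subunit, read 63.9, 60.2 and 61.9 FPKM, against 26.2, 28.5 and 34.8 FPKM. The part of these genes in the ratio was not tested. The same ratio was 2.30 ± 0.0486 in OCI-LY3 with doxorubicin, against 2.26 ± 0.101 untreated, and 1.82 ± 0.0364 in HT with doxorubicin, against 1.79 ± 0.0391 untreated (SD, n = 3 each). In SUDHL5 it was 2.10 ± 0.0574 with doxorubicin, against 2.16 ± 0.0125 untreated, and the libraries overlapped in all 3 of these lines. In OCI-LY3, 20 of 50 large-subunit genes fell and 8 rose, against 13 falls and 4 rises among 25 small-subunit genes. Proteins with a bacterial counterpart form the old core of the large subunit, and their genes fell in 22 of 30 cases in OCI-LY19 and 16 of 30 in OCI-LY3. The mitochondrion-specific large-subunit genes fell in 11 of 20 cases in OCI-LY19 and 4 of 20 in OCI-LY3, where 6 rose. Those 6 rises were 30% of the class, against 40.4% of all genes in OCI-LY3, and the 4 falls were 20%, against 14.3%. In SUDHL5 the large-subunit falls were 11 of 30 (36.7%) with a bacterial counterpart and 9 of 20 (45%) among the mitochondrion-specific genes. In HT they were 7 of 30 and 1 of 20. Of 15 small-subunit genes with a bacterial counterpart, 6 fell and 4 rose in OCI-LY3, and 3 fell and 3 rose in HT. In OCI-LY19 11 of them fell and 1 rose, and in SUDHL5 4 fell and 1 rose. Among the 10 mitochondrion-specific small-subunit genes none rose in OCI-LY3, HT or OCI-LY19, and 7, 5 and 7 fell there. In SUDHL5 4 of those 10 fell and 1 rose. SUDHL5 showed 20 falls and 3 rises among 50 large-subunit genes, and 8 falls and 2 rises among 25 small-subunit genes. No difference between these classes was tested.

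**Figure D4:**
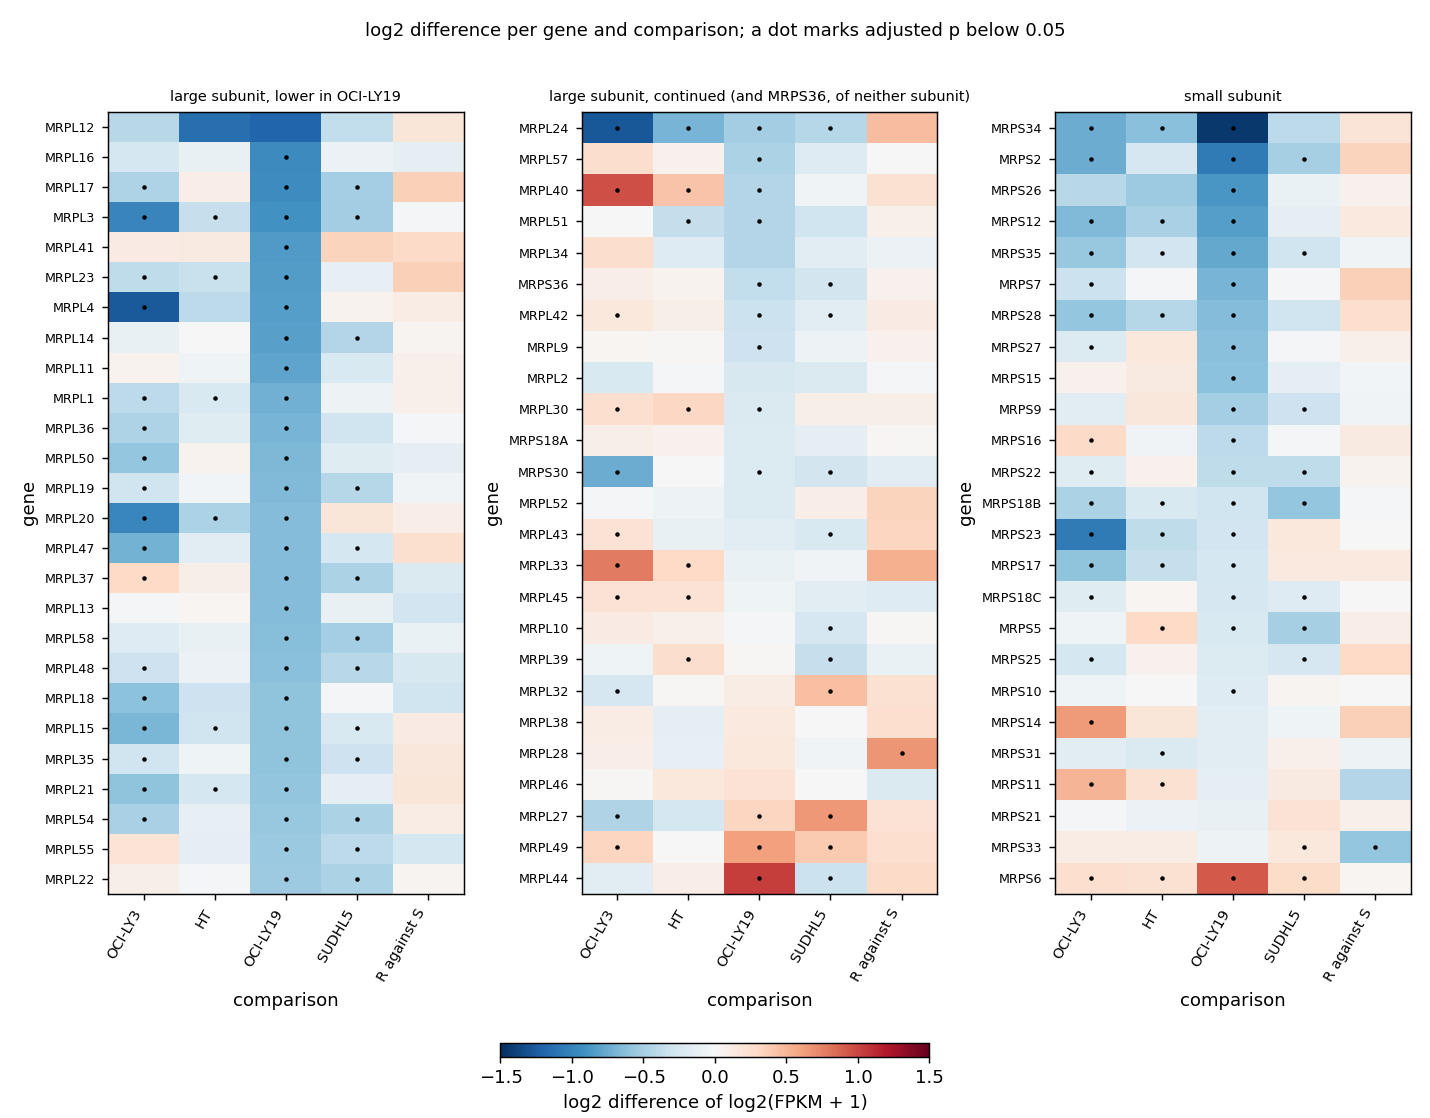
Log2 difference per gene (rows) and comparison (columns), blue where doxorubicin or OCI-LY19R was lower and red where it was higher; dots mark adjusted p below 0.05. The OCI-LY19 column holds most of the deep blue, MRPS6 is red with a dot in all 4 lines, and the OCI-LY19R column has 2 dots.

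The stretches before the start sites are shown for the 6 genes with a called change of at least 1 on the log2 scale in some line, because motifs were counted at the members' starts, the ETS-type motif CCGGAAG among them. Sequences are the 100 bases before the RefSeq start on GRCh38.p14, written 5′ to 3′ on the gene's own strand. Capitals mark CCGGAAG or its reverse complement CTTCCGG. The positions are chr16:1773135-1773234 (minus strand) for MRPS34, chr1:156741089-156741188 (minus strand) for MRPL24, chr19:10251851-10251950 (plus strand) for MRPL4, chr9:135500582-135500681 (plus strand) for MRPS2, chr17:57850045-57850144 (minus strand) for MRPS23 and chr2:223957363-223957462 (plus strand) for MRPL44.
MRPS34: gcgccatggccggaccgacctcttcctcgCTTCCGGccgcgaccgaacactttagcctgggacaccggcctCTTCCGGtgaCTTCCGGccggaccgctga
MRPL24: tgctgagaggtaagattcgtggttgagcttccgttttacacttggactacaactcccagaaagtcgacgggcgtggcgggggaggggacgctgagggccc
MRPL4: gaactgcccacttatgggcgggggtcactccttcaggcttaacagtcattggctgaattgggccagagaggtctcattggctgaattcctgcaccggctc
MRPS2: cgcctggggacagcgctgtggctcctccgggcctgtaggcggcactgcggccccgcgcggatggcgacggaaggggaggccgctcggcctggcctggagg
MRPS23: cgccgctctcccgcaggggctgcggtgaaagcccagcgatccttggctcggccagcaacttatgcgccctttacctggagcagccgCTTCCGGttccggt
MRPL44: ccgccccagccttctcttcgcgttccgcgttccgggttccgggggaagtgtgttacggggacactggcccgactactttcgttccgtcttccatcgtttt
MRPS34 carries 3 copies and MRPS23 carries 1, while MRPL24, MRPL4, MRPS2 and MRPL44 hold none in these 100 bases. MRPL44 rose in OCI-LY19, and the other 5 were lower in OCI-LY19 or OCI-LY3 by their called changes. The genes that moved most thus include some with the motif and some without it in these 100 bases. The MRPL24 and MRPS2 stretches lie wholly inside the gene spans given below, as the RefSeq start used is not the outer end of the span. Sequences before other starts of MRPL24 and MRPS2 are not shown.

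In the RefSeq windows from 250 bases before to 50 after each start, matched for 70 of the 78 genes and searched on both strands, CCGGAAG was found in 29 (41.4%). It was found in 10.3% of all 35116 windows and in 20.5% of the windows of 9467 tested protein-coding genes. The YY1-type motif AANATGGCG was found in 18 members (25.7%), against 3.19% of all windows and 7.34% of tested genes. The NRF1 motif, which is GCGC, any base and TGCGC, was found in 8 members (11.4%), against 5.78% and 12.5%, and the E-box CACGTG in 7 (10%), against 7.26% and 10.4%. CCAAT stood in 20 (28.6%), against 34.6% and 37.3%. Genes with and without CCGGAAG both fell in OCI-LY19: 18 of 28 with it (median log2 difference -0.33) and 28 of 40 without it (-0.51). For AANATGGCG, 11 of 17 with it fell (-0.295) and 35 of 51 without it (-0.472). The median GC content of the windows was 60.3% for members and 58.7% for all windows.

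Among small-subunit genes, MRPS34 (ENSG00000074071.15, chr16:1771890-1773155, minus strand, GRCh38), which encodes a mitochondrion-specific subunit needed for a stable small subunit, had the deepest fall of all members. It stood at 25.1, 33.6 and 24.2 FPKM in OCI-LY19 with doxorubicin, against 59.8, 97.2 and 75.8 FPKM untreated. In OCI-LY3 it stood at 52.2, 53.6 and 53.3 FPKM with doxorubicin, against 87.7, 71.2 and 114 FPKM untreated. No treated library reached an untreated one in either line, although the untreated libraries scattered widely. The log2 differences were -1.44 ± 0.15 (SE, limma adjusted p = 1.45e-07) in OCI-LY19, -0.74 ± 0.15 (0.000401) in OCI-LY3 and -0.62 ± 0.15 (0.00406) in HT. In SUDHL5 it gave 85.5, 81.9 and 78.9 FPKM with doxorubicin, against 109, 109 and 105 FPKM untreated, which did not overlap but missed the threshold (-0.39, limma adjusted p = 0.0525).

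MRPS2 (chr9:135499984-135504673, plus strand), whose bacterial counterpart lies between the head and body of the small subunit, was at 16.1, 20.9 and 12.9 FPKM in OCI-LY19 with doxorubicin, against 32.6, 37.7 and 35.8 FPKM untreated. The libraries did not overlap, and the log2 difference was -1.06 ± 0.12 (limma adjusted p = 2.24e-07). It fell in OCI-LY3 (-0.74 ± 0.12, 2.26e-05) and in SUDHL5 (-0.50 ± 0.12, 0.00187) as well, but was not called in HT (-0.25, 0.115).

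MRPS23 (chr17:57834781-57850056, minus strand), a mitochondrion-specific subunit, was at 4.34, 5.58 and 5.65 FPKM in OCI-LY3 with doxorubicin, against 12.3, 10.9 and 12.4 FPKM untreated (-1.06 ± 0.09, limma adjusted p = 1.46e-08). In SUDHL5 it read 8.12, 7.38 and 7.95 FPKM with doxorubicin, against 6.62, 7.31 and 6.71 FPKM untreated, a small excess that was not called (0.16, 0.184). It fell in HT (-0.38, 0.00365). Its fall in OCI-LY19 (-0.29, 0.0121) was lost in 3 of 16 alternatives, among them those without untreated replicate 3 and without doxorubicin replicate 3, with an adjusted p of up to 0.0688. MRPS35, another mitochondrion-specific subunit, fell in all 4 lines: it averaged 26.9 ± 3.18 FPKM in OCI-LY19 with doxorubicin, against 46.4 ± 1.64 FPKM untreated, and 36.0 ± 0.715 FPKM in SUDHL5 with doxorubicin, against 44.5 ± 0.957 FPKM untreated (SD, n = 3 each).

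MRPS12, counterpart of the bacterial decoding-site protein that streptomycin mutations alter, fell in OCI-LY19 (-0.83, limma adjusted p = 0.000224) and OCI-LY3 (-0.66, 0.00204). In HT it was at 16.2, 18 and 13.6 FPKM with doxorubicin, against 26.3, 22.6 and 19.1 FPKM untreated. These did not overlap, but the call (-0.48 ± 0.16, 0.030) was lost in 6 of 16 alternatives, including those without untreated replicate 1 or 2 or without doxorubicin replicate 1 or 3, with an adjusted p of up to 0.144. MRPS28, at 1.82, 1.48 and 2 FPKM in HT with doxorubicin and 2.65, 2.21 and 3.31 FPKM in untreated HT, fell by the test (-0.42 ± 0.15, 0.033), a call lost in 7 of 15 alternatives. The HT replicates pair by number, and with the replicate block its adjusted p was 0.0549. Without untreated replicate 1 or 3 or doxorubicin replicate 1 or 2 it was at most 0.157.

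In the large subunit, MRPL3 (ENSG00000114686.9, chr3:131462212-131502983, minus strand), whose bacterial counterpart is one of the first proteins to bind the large rRNA, fell in all 4 lines. It read 35, 41.2 and 34.5 FPKM in OCI-LY3 with doxorubicin, against 76.5, 70.6 and 75.7 FPKM untreated. In OCI-LY19 it read 29.3, 37.6 and 29.2 FPKM with doxorubicin, against 59.9, 59.3 and 63.2 FPKM untreated. Both differences were many times the replicate spread, at -0.99 ± 0.09 (limma adjusted p = 1.34e-08) and -0.91 ± 0.09 (2.84e-08). In SUDHL5 it read 28.1, 30.0 and 28.6 FPKM with doxorubicin, against 42.0, 41.5 and 42.4 FPKM untreated (-0.52 ± 0.09, 6.83e-05). HT moved least, with 59.8, 65.6 and 53.5 FPKM with doxorubicin, against 76.8, 72.8 and 77.0 FPKM untreated (-0.34 ± 0.09, 0.00476).

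MRPL24 (chr1:156737303-156741590, minus strand), whose bacterial counterpart starts large-subunit assembly and lies near the exit of the peptide tunnel, had the deepest called fall in both OCI-LY3 and HT. It read 8.70, 10.1 and 9.50 FPKM in OCI-LY3 with doxorubicin, against 23.9, 22.6 and 25.9 FPKM untreated. In HT it read 21.8, 19.0 and 16.8 FPKM with doxorubicin, against 35.5, 28.2 and 31.6 FPKM untreated. Treated and untreated libraries were apart in both, with log2 differences of -1.27 ± 0.10 (limma adjusted p = 4.11e-09) and -0.70 ± 0.10 (3.58e-05). It fell in OCI-LY19 (-0.52 ± 0.10, 0.000173) and SUDHL5 (-0.43 ± 0.10, 0.00196) too. Besides MRPL3, MRPL24 and MRPS35, the genes that fell in all 4 lines were MRPL15 and MRPS18B. Of MRPL15, the HT call was lost without doxorubicin replicate 3 and with the line alone (adjusted p up to 0.0521), and the SUDHL5 call was lost in 7 of 16 alternatives (up to 0.109), those without untreated replicate 1, 2 or 3 or doxorubicin replicate 1 among them.

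MRPL4 (chr19:10251901-10260045, plus strand), counterpart of a bacterial protein that lines the peptide tunnel, read 25.3, 26.4 and 27.0 FPKM in OCI-LY3 with doxorubicin, against 52.6, 59.1 and 85.6 FPKM untreated (-1.26 ± 0.19, limma adjusted p = 1.55e-05). The treated libraries were close together and the untreated ones were not. It fell in OCI-LY19 (-0.83, 0.00103), whereas SUDHL5 gave 0.05 (0.889) and HT -0.39 (0.132). MRPL20 (chr1:1401908-1407313, minus strand) read 16.2, 20.4 and 20.9 FPKM in OCI-LY3 with doxorubicin, against 37.5, 34.4 and 44.0 FPKM untreated (-0.98 ± 0.11, 6.11e-07). It also fell in OCI-LY19 (-0.65 ± 0.11, 6.52e-05) and in HT (-0.48 ± 0.11, 0.0031). SUDHL5 went without a call, at 23.5, 22.9 and 24.4 FPKM with doxorubicin, against 20.0, 21.7 and 20.2 FPKM untreated (0.19, 0.221).

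MRPL17 (chr11:6680782-6683401, minus strand) read 8.57, 10.9 and 8.31 FPKM in OCI-LY19 with doxorubicin, against 17.3, 18.2 and 20.6 FPKM untreated, with no overlap (-0.95 ± 0.10, limma adjusted p = 2.31e-07). It fell in SUDHL5 (-0.51 ± 0.10, 0.000641) and OCI-LY3 (-0.46 ± 0.10, 0.000874), while HT gave 0.09 (0.561). MRPL16 (chr11:59806135-59810872, minus strand), whose bacterial counterpart lies beside the peptidyl transferase centre, read 14.3, 21.6 and 14.9 FPKM in OCI-LY19 with doxorubicin, against 29.1, 36.1 and 34.8 FPKM untreated (-0.95 ± 0.12, 1.83e-06). It was called in no other line, with differences between -0.26 and -0.09. MRPL51, the member with the highest level, read 58.1, 64.5 and 51.8 FPKM in OCI-LY19 with doxorubicin, against 71.9, 78.5 and 87.7 FPKM untreated (-0.44, 0.00498, lost with quantile normalization at 0.159). It averaged 122 ± 12.7 FPKM in OCI-LY3 with doxorubicin and 122 ± 22.2 FPKM in untreated OCI-LY3 (SD, n = 3 each).

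**Figure D5:**
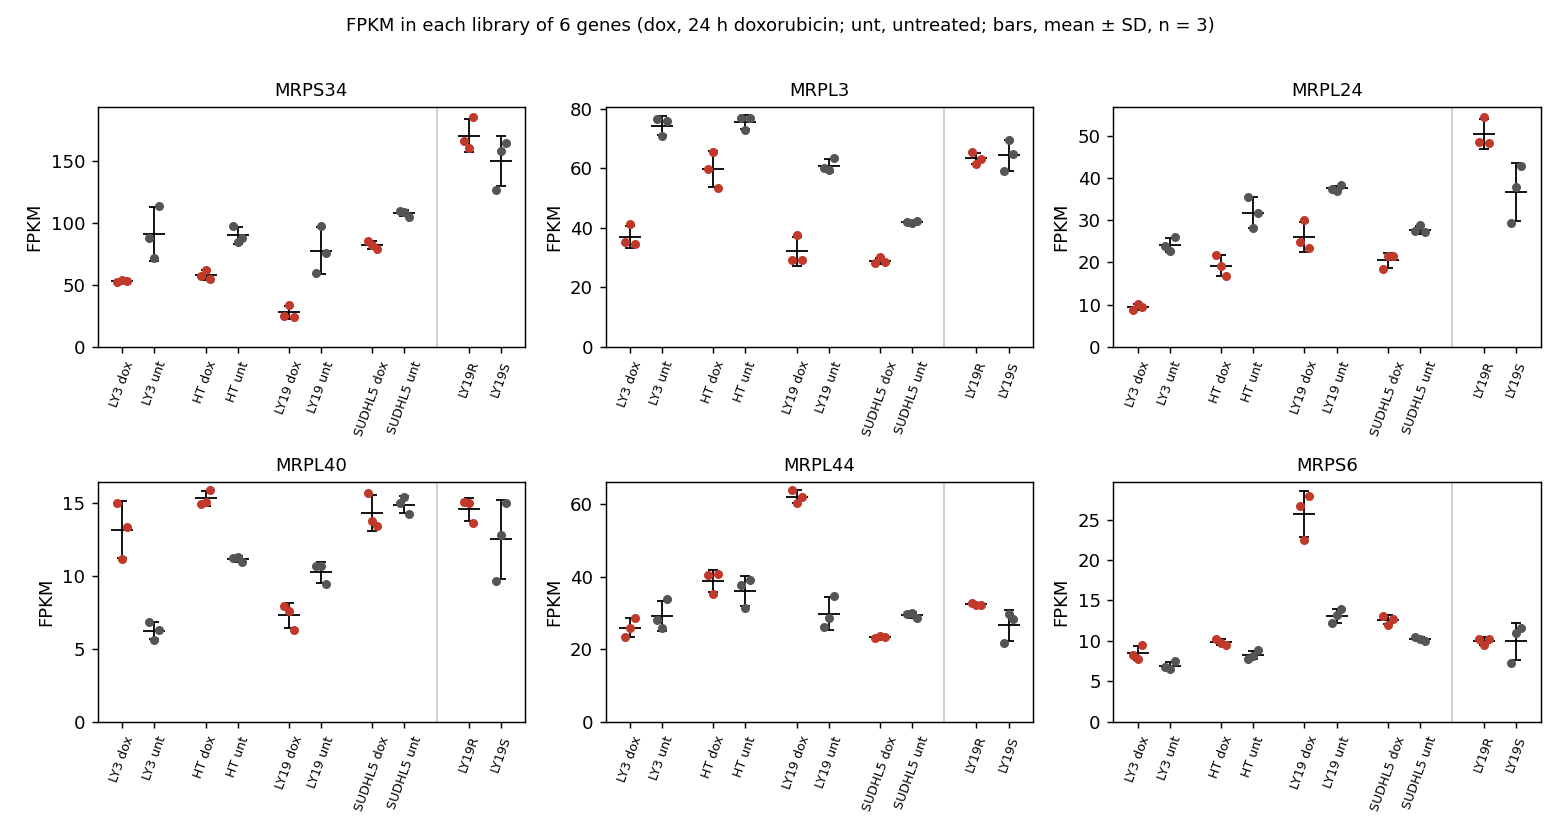
FPKM of MRPS34, MRPL3, MRPL24, MRPL40, MRPL44 and MRPS6 in each of the 30 libraries (points), with the mean and SD of each group of 3 (bars); doxorubicin stands left of untreated and OCI-LY19R left of OCI-LY19S, and the grey line separates the 2 tables. MRPL3 is lower with doxorubicin in all 4 lines, MRPL40 is higher in OCI-LY3 and HT and lower in OCI-LY19, and MRPL44 averages 62.0 FPKM in OCI-LY19 with doxorubicin.

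Rises were fewer and mostly belonged to 1 or 2 lines. MRPL44 (chr2:223957404-223967714, plus strand), a mitochondrion-specific subunit with an RNase III-like fold, read 63.9, 60.2 and 61.9 FPKM in OCI-LY19 with doxorubicin, against 26.2, 28.5 and 34.8 FPKM untreated. It was the only member whose rise exceeded 1 on the log2 scale in any line (1.04 ± 0.10, limma adjusted p = 6.52e-08). In SUDHL5 it read 23.1, 23.6 and 23.5 FPKM with doxorubicin, against 29.8, 29.9 and 28.5 FPKM untreated, so that there it lay below (-0.32 ± 0.10, 0.0204). That SUDHL5 fall was lost in 4 of 16 alternatives: median-of-ratios scaling, and without untreated replicate 1, untreated replicate 2 or doxorubicin replicate 1 (adjusted p up to 0.0582). OCI-LY3 gave -0.17 (0.190) and HT 0.10 (0.509).

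MRPS6 (chr21:34073224-34143034, plus strand), of the small-subunit platform, was the only member called as risen in all 4 lines. It read 26.7, 22.5 and 27.9 FPKM in OCI-LY19 with doxorubicin, against 12.1, 13.2 and 13.9 FPKM untreated (0.92 ± 0.08, limma adjusted p = 7.34e-09). SUDHL5 read 13.1, 12 and 12.7 FPKM with doxorubicin, against 10.5, 10.3 and 10.02 FPKM untreated (0.27 ± 0.08, 0.00939), and neither line overlapped. The OCI-LY3 rise (0.25 ± 0.08, 0.00938) was lost with median-of-ratios scaling, quantile normalization, the line alone and without doxorubicin replicate 3 (adjusted p up to 0.965). The HT rise (0.23 ± 0.08, 0.0315) was lost in 8 of 16 alternatives, including both scalings and those without untreated replicate 1 or 2 or doxorubicin replicate 1 or 2 (up to 0.243). MRPS6 spans SLC5A3, the gene of a myo-inositol transporter on the same strand. Of the coding bases of MRPS6 49.3%, and of all its exon bases 9.6%, lie in same-strand exons of other genes. SLC5A3 averaged 39.5 ± 9.30 FPKM in OCI-LY19 with doxorubicin, against 11.3 ± 2.23 FPKM untreated (SD, n = 3 each), a log2 difference of 1.70 (limma adjusted p = 2.04e-08). SLC5A3 also rose in OCI-LY3 (0.56, 0.00465) and SUDHL5 (0.53, 0.0105), while HT gave no call (0.18, 0.434). Its part in the MRPS6 values was not tested.

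MRPL49 (chr11:65122183-65127371, plus strand), a mitochondrion-specific subunit, rose in 3 lines. It read 24.6, 23.6 and 27.5 FPKM in OCI-LY19 with doxorubicin, against 15.7, 15.9 and 16.5 FPKM untreated (0.62 ± 0.06, limma adjusted p = 4.41e-08). SUDHL5 read 36.1, 35.9 and 36.0 FPKM with doxorubicin, against 27.4, 28.2 and 26.3 FPKM untreated (0.39 ± 0.06, 3.68e-05). Both lines had treated libraries wholly above untreated ones, and HT gave no call (0.00, adjusted p of 1). In OCI-LY3 it read 18.2, 21.3 and 21.3 FPKM with doxorubicin, against 16.1, 15.6 and 16.1 FPKM untreated (0.32 ± 0.06, 0.000141), a call lost with median-of-ratios scaling (0.497). Its exons overlap those of FAU and SYVN1 on the opposite strand. SYVN1 averaged 12.4 ± 0.532 FPKM in OCI-LY19 with doxorubicin, against 9.35 ± 1.15 FPKM untreated (SD, n = 3 each), while FAU did not pass the test there (-0.11, limma adjusted p = 0.301). In OCI-LY3 both were lower with doxorubicin, SYVN1 at -0.47 (0.000285) and FAU at -0.39 (0.000672), and in SUDHL5 neither was called, at 0.02 (0.926) for SYVN1 and 0.06 (0.645) for FAU. Their part in the MRPL49 values was not tested. The strand setting of the counting is not given in the sources used here.

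MRPL40 (chr22:19431902-19436075, plus strand), a mitochondrion-specific subunit, had the largest rise in OCI-LY3 and in HT. It read 15.0, 11.2 and 13.4 FPKM in OCI-LY3 with doxorubicin, against 6.80, 5.63 and 6.29 FPKM untreated (0.96 ± 0.09, limma adjusted p = 4.59e-08). HT read 14.9, 15.1 and 15.9 FPKM with doxorubicin, against 11.2, 11.3 and 10.9 FPKM untreated (0.43 ± 0.09, 0.00145). In OCI-LY19 the order turned, with 7.93, 7.61 and 6.30 FPKM with doxorubicin, against 10.6, 10.6 and 9.43 FPKM untreated (-0.44 ± 0.09, 0.00035). None of these 3 lines had overlapping libraries, and SUDHL5 did (-0.05, 0.706).

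MRPL33 (chr2:27771717-27988087, plus strand), a small protein with a bacterial counterpart, read 12.7, 12.3 and 14.0 FPKM in OCI-LY3 with doxorubicin, against 7.28, 6.36 and 7.81 FPKM untreated (0.78 ± 0.08, limma adjusted p = 1.91e-07). Its HT rise (0.29 ± 0.08, 0.0106) was lost with median-of-ratios scaling, quantile normalization and without doxorubicin replicate 1, with an adjusted p of up to 0.0733. MRPS14 read 15.9, 16 and 21.2 FPKM in OCI-LY3 with doxorubicin, against 11.4, 9.48 and 12 FPKM untreated (0.64 ± 0.10, 1.4e-05). MRPS11, which sits on the small-subunit platform, read 9.07, 10.1 and 10.5 FPKM in OCI-LY3 with doxorubicin, against 6.26, 6.23 and 7.53 FPKM untreated (0.51 ± 0.07, 8.68e-06). These 3 genes had no overlapping libraries in OCI-LY3.

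In HT the remaining rises were small. MRPL30 read 12.3, 12.1 and 11.1 FPKM with doxorubicin, against 9.66, 9.22 and 9.17 FPKM untreated (0.31 ± 0.04, limma adjusted p = 3.14e-05). MRPS5, whose bacterial counterpart lines the entry of the mRNA channel, read 11.2, 11 and 11 FPKM with doxorubicin, against 8.71, 9.29 and 8.58 FPKM untreated (0.29 ± 0.06, 0.000507). In both, the HT groups stood apart. MRPL39 rose by the test (0.26 ± 0.09, 0.0266), but its HT libraries overlapped, at 59.5, 52.7 and 64.1 FPKM with doxorubicin and 47.9, 45.7 and 53.2 FPKM untreated. That call was lost in 7 of 16 alternatives, among them median-of-ratios scaling (0.215) and those without untreated replicate 1 or 2 or doxorubicin replicate 1 or 3.

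The largest rises in SUDHL5 were those of MRPL27 and MRPL32. MRPL27 (chr17:50367857-50373214, minus strand), whose bacterial counterpart reaches into the peptidyl transferase centre, read 18.9, 18.2 and 18.7 FPKM in SUDHL5 with doxorubicin, against 11, 12.1 and 11.4 FPKM untreated (0.65 ± 0.10, limma adjusted p = 3.91e-05). In OCI-LY3 it read 9.49, 13.2 and 12.9 FPKM with doxorubicin, against 16.7, 14.7 and 18 FPKM untreated, a fall (-0.45 ± 0.10, 0.00093) lost with the line alone (0.0511). The OCI-LY19 rise (0.33 ± 0.10, 0.00947) was lost with median-of-ratios scaling (0.0779). MRPL32, which is cut to its mature form by the m-AAA protease of the inner membrane, read 17.0, 17.2 and 15.9 FPKM in SUDHL5 with doxorubicin, against 12.1, 11.9 and 11.9 FPKM untreated (0.45 ± 0.05, 3.49e-07). It fell in OCI-LY3, where it read 20.3, 21.2 and 21.4 FPKM with doxorubicin, against 25.9, 24.3 and 25.0 FPKM untreated (-0.25 ± 0.05, 0.000168). The MRPS33 rise in SUDHL5 (0.16 ± 0.06, 0.0347) was lost in 8 of 16 alternatives, including those without untreated replicate 1 or 2 or doxorubicin replicate 1 or 3, with an adjusted p of up to 0.27.

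Over the 4 lines, 5 of the 76 genes tested fell in all of them (6.58%, against 1.7% of all genes), 19 in 3 (25%, against 5.12%) and 17 in 2 (22.4%, against 11.3%). Another 19 fell in 1 line (25%, against 22.6% of all genes) and 16 in none (21.1%, against 59.3%). In 11 genes (14.5%, against 19.1% of all genes) a fall in 1 line stood beside a rise in another. The response differed among the 4 lines in 56 of 76 genes (73.7%) by a limma F test of the 3 differences between responses, against 72.2% of all genes tested. The 5 smallest adjusted p-values were those of MRPL40 (1.332e-07), MRPL32 (4.143e-07), MRPS5 (5.98e-07), MRPL44 (6.907e-07) and MRPS23 (1.603e-06). MRPS5 rose in HT, as given above, and fell in SUDHL5, where it read 7.21, 6.66 and 6.74 FPKM with doxorubicin, against 10.2, 9.93 and 10.2 FPKM untreated (-0.50 ± 0.06, 7.63e-07). It fell in OCI-LY19 as well (-0.23, 0.00167), and OCI-LY3 gave -0.07 (0.336).

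Untreated levels differed among the 4 lines in 71 of 76 genes (93.4%) by the F test, against 90.5% of all genes. MRPL45, which anchors the ribosome to the inner membrane, averaged 25.3 ± 1.37 FPKM in OCI-LY19, 22.6 ± 1.92 FPKM in HT, 15.4 ± 1.10 FPKM in SUDHL5 and 5.28 ± 0.187 FPKM in OCI-LY3 (SD, n = 3 each; limma F, adjusted p = 1.52e-15). MRPS33 ran the other way, with 2.23 to 2.48 FPKM in OCI-LY19 at the low end, 6.45 to 6.58 FPKM in HT, 6.50 to 6.93 FPKM in SUDHL5 and 9.61 to 10.4 FPKM in OCI-LY3 (2.61e-15), so that HT and SUDHL5 overlapped and the other two stood apart. MRPL32 was lowest in SUDHL5, at 11.9 to 12.1 FPKM, against 18.2 to 18.5 in HT, 24.3 to 25.9 in OCI-LY3 and 26.8 to 29.2 in OCI-LY19. MRPL30 stood at 8.96 to 10.1 FPKM in OCI-LY3, HT and OCI-LY19 and at 4.75 to 4.92 FPKM in SUDHL5. MRPS31 stood at 13.3 to 14.7 FPKM in OCI-LY19, and at 26.6 to 44.4 FPKM in the libraries of the other lines.

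Between OCI-LY19R and OCI-LY19S few mitochondrial ribosomal protein genes were called. Their summed level was 2246, 2211 and 2237 FPKM in OCI-LY19R, against 1824, 2250 and 2246 FPKM in OCI-LY19S, where replicate 1 was the low one. Of 76 genes, 1 rose (1.32%), against 3.11% of all 12785 genes tested, and 1 fell (1.32%), against 2.34%. An unadjusted p under 0.05 was found for 11 members (14.5%), against 23.5% of all genes. OCI-LY19R libraries lay wholly above those of OCI-LY19S for 14 members (all genes 20.9%) and wholly below for 5 (11.8%). The median log2 difference was 0.07 for members and 0.05 for all genes, and without OCI-LY19S replicate 1 the median of members was -0.003622.

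MRPL28 (chr16:366969-371289, minus strand) was the one that rose, at 30.2, 28.3 and 29.9 FPKM in OCI-LY19R, against 15.3, 19.9 and 19.9 FPKM in OCI-LY19S (0.66 ± 0.12, limma adjusted p = 0.0283). MRPS33 fell, with 2.80, 2.82 and 2.93 FPKM in OCI-LY19R, against 4.03, 4.99 and 5.26 FPKM in OCI-LY19S (-0.58 ± 0.10, 0.0312). Neither overlapped, but each call was lost in 7 alternatives, with adjusted p up to 0.121 for MRPL28 and 0.143 for MRPS33. Both were lost with no filter, with the replicate block, without OCI-LY19S replicate 2 and without any single OCI-LY19R replicate; MRPL28 was also lost with median-of-ratios scaling and MRPS33 without OCI-LY19S replicate 3. The authors' deposited table gives MRPL28 a log2 fold change of 0.61 (adjusted p of 0.00277) and MRPS33 one of -0.82 (4.08e-05). The authors' deposited table also lists MRPS11 as lower in OCI-LY19R (-0.57, 0.00441). For MRPS11 the FPKM values were 7.47, 7.73 and 7.28 in OCI-LY19R, against 8.93, 11.2 and 11.4 in OCI-LY19S, without overlap, and the limma fit gave -0.43 ± 0.11 (0.0677). MRPL24, which fell in every line under the drug, read 48.5, 54.5 and 48.3 FPKM in OCI-LY19R, against 29.3, 37.9 and 42.8 FPKM in OCI-LY19S, again without overlap and without a call (0.46 ± 0.14, 0.118).

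MRPL58, MRPL12 and MRPL41 are known for work beyond the ribosome's core. The first, a peptidyl-tRNA hydrolase that frees stalled mitochondrial ribosomes, read 13.6, 14.7 and 14.2 FPKM in SUDHL5 with doxorubicin, against 20.3, 20.6 and 20.7 FPKM untreated (-0.51 ± 0.10, limma adjusted p = 0.000392), and it fell in OCI-LY19 (-0.64, 1.52e-05). MRPL12, which is reported to bind mitochondrial RNA polymerase, was called in no line, and its replicates varied widely in OCI-LY3, HT and OCI-LY19. It read 1.39, 14.3 and 2.30 FPKM in OCI-LY19 with doxorubicin, against 3.82, 23.5 and 11.2 FPKM untreated. In SUDHL5 its replicates were close, at 21.7 to 22.99 FPKM with doxorubicin, against 28.5 to 30.9 FPKM untreated, without overlap. The standard error of MRPL12 was 0.63 on the log2 scale, from a fit that pools the replicate spread of all 4 lines. MRPL41, linked in reports to p53 and cell-cycle arrest, read 15.9, 26.4 and 12.9 FPKM in OCI-LY19 with doxorubicin, against 22.7, 53.5 and 27.9 FPKM untreated, with overlap. Its call in OCI-LY19 (-0.85 ± 0.29, 0.0183) was lost in 5 of 16 alternatives (adjusted p up to 0.148). Among them were the library-name suffix as a covariate and the fits without untreated replicate 2 or doxorubicin replicate 1 or 3. In SUDHL5 MRPL41 was higher without a call, at 84.4, 92.2 and 87.6 FPKM with doxorubicin, against 69.5, 72.6 and 66.5 FPKM untreated, without overlap. MRPS36, whose product serves the oxoglutarate dehydrogenase complex, averaged 7.31 ± 0.194 FPKM in OCI-LY19 with doxorubicin, against 9.73 ± 0.132 FPKM untreated (SD, n = 3 each; -0.37, 0.000866).

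The MRPS18 proteins descend from one bacterial protein and occupy different sites: MRPS18A in the large subunit, MRPS18B and MRPS18C in the small. In the class counts above, MRPS18C stands with the genes that have a bacterial counterpart. MRPS18A and MRPS18B were counted there as mitochondrion-specific despite this shared descent. MRPS18B (chr6:30617709-30626395, plus strand) read 14.3, 14.1 and 13.7 FPKM in SUDHL5 with doxorubicin, against 20.7, 21.5 and 22.1 FPKM untreated, the deepest fall in that line (-0.58 ± 0.08, limma adjusted p = 4.7e-06). It fell in OCI-LY3 (-0.47, 2.63e-05) and OCI-LY19 (-0.29, 0.00233). Its HT fall (-0.23, 0.0236) was lost in 6 of 16 alternatives, including those without untreated replicate 1 or 2 or doxorubicin replicate 1 or 3 (adjusted p up to 0.101). MRPS18A was called in no line, with differences between -0.21 and 0.09. MRPS18C fell in OCI-LY19 (-0.25, 0.00237). Its calls in OCI-LY3 (-0.18, 0.0202) and SUDHL5 (-0.19, 0.0245) were lost in 5 and 6 of 16 alternatives, those without untreated replicate 3 and without doxorubicin replicate 1 or 3 among them in both lines, and without untreated replicate 1 in OCI-LY3.

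Of the 6 lowest members, 5 shared most of their coding bases with other genes, and MRPL2, at 1.52 FPKM, did not. In GENCODE 29, 8 of the 78 genes had at least 50% of their coding bases inside same-strand exons of another gene, and these stood at 0.0109 to 15.7 FPKM with a median of 1.75 FPKM. The other 70 stood at 1.52 to 104 FPKM with a median of 21.1 FPKM. MRPL53 has 100% of its coding bases within CCDC142 exons and never exceeded 0.0607 FPKM. MRPS24 shares 92.2% with a read-through gene and never exceeded 0.441 FPKM, MRPL38 shares 94.1% and MRPL46 shares 64.0%. MRPL12 shares 96.0%, MRPL30 shares 95.3%, MRPS17 shares 100% and MRPS28 shares 53.0%. These are shares of coding bases. Of all exon bases, the same-strand shares of the 8 genes were smaller, from 11.3% for MRPL46 to 68.2% for MRPL12. The part of the overlap in their levels was not tested. Reads over such bases cannot be assigned to 1 gene by position alone, so the levels of these 8 genes, and the differences of MRPL30, MRPL12 and MRPS28 above, are uncertain. Exons of 29 members overlap exons on the opposite strand.

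Other genes of mitochondrial translation were read from lists. Their counts stand beside the falls of all genes tested, which were 23.7% in OCI-LY19, 19.9% in SUDHL5, 14.3% in OCI-LY3 and 9.41% in HT, and the rises, which were 34.5%, 18.6%, 40.4% and 22.9% in the same order of lines. The 8 tested genes (of 9 listed) that regulate nuclear genes for mitochondria gave no rise in any line with the values as deposited, with 7 falls in OCI-LY19 (median log2 difference -0.67), 6 in OCI-LY3 (-0.59), 5 in HT (-0.31) and 4 in SUDHL5 (-0.20). MYC, which drives ribosome and mitochondrial gene programmes, fell by 2.71 on the log2 scale in OCI-LY3 (limma adjusted p = 4.15e-10) and by 1.24 in HT (3.42e-05). NRF1, an activator of nuclear genes for mitochondrial proteins, fell by 1.01 in OCI-LY19 (1.1e-08) and by 0.94 in SUDHL5 (7.97e-08). PPRC1, a coactivator in the same pathway, fell by 1.51 in OCI-LY3 (2.72e-08). YY1 and GABPA, factors that bind motifs of the kinds counted above, fell in OCI-LY19 by 0.61 (8.14e-09) and 0.35 (6.79e-05). YY1 also passed the test as lower in OCI-LY3 (-0.42, 1.51e-06), SUDHL5 (-0.26, 0.000634) and HT (-0.17, 0.0199), where GABPA did not pass. Median-of-ratios and quantile scaling each gave 1 rise among these regulators, in SUDHL5. The part of these regulators in the changes of the mitochondrial ribosomal protein genes was not tested. Among 11 genes of mitochondrial DNA transcription and RNA stability, 8 fell and none rose in OCI-LY19, 7 fell and 2 rose in OCI-LY3, 5 fell in HT and 4 fell in SUDHL5. TWNK, the mitochondrial helicase, fell by 2.11 in OCI-LY3 (1.17e-09), and TFB2M, a transcription initiation factor, fell by 1.49 there (4.79e-10).

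Of 25 tested assembly factors of the mitochondrial ribosome (27 listed), 16 fell and 4 rose in OCI-LY19 (median -0.26), 10 fell and 4 rose in OCI-LY3 (-0.11), 7 fell and 3 rose in SUDHL5 (-0.14) and 3 fell and 2 rose in HT (-0.07). FASTKD2, which binds the large mitochondrial rRNA, fell by 0.82 in OCI-LY3 (limma adjusted p = 3.19e-07). MPV17L2, which helps form the large subunit, rose in SUDHL5 (0.63, 0.00064) and in OCI-LY19R (0.77, 0.0257). Of 16 tested mitochondrial aminoacyl-tRNA synthetases (17 listed), 9 fell and 2 rose in OCI-LY19, 6 fell and 1 rose in SUDHL5, 4 fell and 3 rose in OCI-LY3, and 2 fell in HT. MARS2, which charges the methionine tRNA, fell by 1.32 in OCI-LY3 (4.84e-08) and by 1.12 in OCI-LY19 (3.21e-07). Of 13 tested translation factors (14 listed), 4 fell and 2 rose in OCI-LY3, 3 fell and 3 rose in HT, 3 fell and 1 rose in OCI-LY19 and 3 fell in SUDHL5, and GFM1, an elongation factor, fell by 0.92 in OCI-LY3 (1.38e-07). The falls of translation factors in OCI-LY19 (23.1%) and SUDHL5 (23.1%), of assembly factors in HT (12%) and of synthetases in HT (12.5%) were close to those of all genes. The proteins of the mitochondrial ribosome that carry other names, 5 genes with DAP3 among them, fell in 4 cases in OCI-LY19, 3 in OCI-LY3, 3 in SUDHL5 (where 1 rose) and 1 in HT. In OCI-LY19R against OCI-LY19S, the assembly factors gave 1 rise and 1 fall, POLG, the mitochondrial DNA polymerase, fell (-0.56, 0.0167), and none of the regulators, translation factors or synthetases was called.

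Of the 13 mRNAs encoded by mitochondrial DNA, with the values as deposited, 6 rose and none fell in OCI-LY3 (median log2 difference 0.23). That was 46.2%, close to the 40.4% of all genes that rose there. In SUDHL5 6 also rose and none fell (0.27), which was 46.2%, against 18.6% of all genes. OCI-LY19 gave 2 rises (0.09), or 15.4%, against 34.5% of all genes, and HT gave 1 (0.18), or 7.69%, against 22.9%. The direction depended on scale: median-of-ratios scaling gave 1 rise and 2 falls in OCI-LY3 (-0.05) and 2 falls in OCI-LY19 (-0.01), and with quantile normalization 3 fell and 1 rose in OCI-LY19 (-0.12), while none was called in SUDHL5 (0.00). MT-ND1, a subunit of complex I, rose by the test in SUDHL5 (0.68, limma adjusted p = 3.03e-05). The 78 tested cytosolic ribosomal protein genes (79 listed) were read beside them. In OCI-LY19, 34 rose and 2 fell (0.19), whereas 27 fell and 1 rose in OCI-LY3 (-0.17). The rises were 43.6% in OCI-LY19, against 34.5% of all genes, and the falls were 34.6% in OCI-LY3, against 14.3%. The OCI-LY3 direction of the cytosolic set flipped with quantile normalization (11 rose, 9 fell, 0.04), while with median-of-ratios scaling 65 fell and none rose (-0.44), and the OCI-LY19 direction held under both scalings, with 20 rises and 2 falls by median-of-ratios and 52 rises and 4 falls by quantile. No test compared the mitochondrial and cytosolic sets.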

How the data were processed

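Gene-level FPKM values were deposited by the authors in a table of 24 libraries (4 lines) and another of 6 (OCI-LY19R and OCI-LY19S), normalized separately, so tests stayed within a table. Per the labels' protocols, polyadenylated RNA went into strand-specific libraries. The submitters' processing notes name Trimmomatic, STAR, featureCounts and hg38 but no version. A comparison of OCI-LY19R over OCI-LY19S by the authors came with the smaller deposited table. Per the file headers it holds p-values, log2 fold changes, a score for the standard error and for the statistic, and the mean signal of each gene.

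Values were tested as log2(FPKM + 1) by two-sided moderated tests in R 4.3.3 (limma 3.58.1; eBayes with a trend) over genes with FPKM of at least 1 in 3 libraries, 17645 and 12785 genes, with 16 and 4 residual degrees of freedom. A pseudocount of 1 understates changes of low genes. Adjusted p-values cover all genes tested, and F tests covered responses and untreated levels over the 4 lines. Of the values above 0 of genes whose ID has an exon length in GENCODE 29, 100.0% came out as whole reads within 0.01 read. For tested genes without one (10691 and 8778 in the 2 tables) a length was solved for 10690 and 8778 so that values come out whole, which is no check there. The reads served for depth, replicate checks and a voom fit added after seeing the data. The fits were tested on simulated data. The number of libraries limits precision, and nothing beyond the labels says that replicates came from separate cultures, so p-values measure the spread between these libraries.

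The members and lists were chosen with earlier results of these data known. Named genes are the 5 largest called rises and falls per comparison, the 5 smallest p-values of each F test, the 5 highest and lowest levels, members under the filter, the MRPS18 group and members with other roles. Of each list, genes of the largest change are named. MRPL15, MRPS35, MRPS36, YY1, GABPA, POLG, MPV17L2 and genes that overlap members were named after their values were seen. Replicate numbers of HT pair its libraries (correlations of 0.167, 0.32 and 0.347 between same-numbered libraries). For the other comparisons at least 1 correlation was under 0.1. Alternatives were another pseudocount, other filters, TPM, median-of-ratios and quantile scaling, a replicate block, the library-name suffix, each line alone and leaving out each replicate. The SUDHL5 library names share a suffix that those of OCI-LY3, HT and OCI-LY19 lack, so line and suffix cannot be told apart there. All HT libraries share a suffix that no OCI-LY3 library has, so line and suffix are also mixed between those lines. In OCI-LY19 an untreated library has a suffix that no treated OCI-LY19 library has.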

Additional observations from a re-analysis of the deposited data

Results flagged for a closer look

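The response to doxorubicin differed among OCI-LY3, HT, OCI-LY19 and SUDHL5 by the limma F test in 56 of the 76 mitochondrial ribosomal protein genes tested (73.7%), close to the 72.2% of all genes. Leaving out 1 library at a time gave 52 to 61 genes. MRPL40 (limma adjusted p = 1.332e-07) was higher with doxorubicin in OCI-LY3 and HT and lower in OCI-LY19. MRPL32 (limma adjusted p = 4.143e-07) was higher in SUDHL5 and lower in OCI-LY3. MRPS5 (limma adjusted p = 5.98e-07) was higher in HT and lower in OCI-LY19 and SUDHL5. MRPL44 (limma adjusted p = 6.907e-07) was higher in OCI-LY19, and its lower level in SUDHL5 was lost in 4 of 16 alternatives. MRPS23 (limma adjusted p = 1.603e-06) fell most in OCI-LY3 and was not called in SUDHL5.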

How the results depend on the processing

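No called member took the opposite call in any comparison under any alternative. Calls kept in every alternative numbered 27 of 33 falls and 4 of 12 rises in OCI-LY3, 6 of 16 and 3 of 8 in HT, 42 of 52 and 3 of 4 in OCI-LY19, 19 of 29 and 4 of 5 in SUDHL5, and neither call of OCI-LY19R. Counts of members changed moved by over 1.5 times as follows. With median-of-ratios scaling, OCI-LY3 had 4 risen, HT 3 risen and OCI-LY19R 0 risen. With quantile normalization, HT had 5 risen and OCI-LY19 7 risen. With the libraries of the line alone, OCI-LY3 had 7 risen, HT 4 risen and 9 fallen, and SUDHL5 10 risen. That fit also gave 39 fallen in SUDHL5 and 29 in OCI-LY3, each within 1.5 times, so SUDHL5 had more falls than OCI-LY3 there. In OCI-LY19R against OCI-LY19S, no filter gave 0 risen and 0 fallen, the replicate block 0 and 0, the filter at FPKM 5 gave 0 fallen, and the authors' comparison and voom gave 2 fallen each. The cause was not tested.

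Leaving out 1 library gave 7 to 16 falls and 4 to 7 rises in HT (7 falls without doxorubicin replicate 3, 8 without untreated replicate 1, 4 rises without doxorubicin replicate 1, 5 without untreated replicate 1 or 2). In the others it gave 30 to 34 falls and 9 to 14 rises in OCI-LY3, 48 to 55 and 4 to 5 in OCI-LY19, 20 to 27 and 4 to 5 in SUDHL5, and 0 to 4 and 0 to 1 in OCI-LY19R, where the 4 falls came without OCI-LY19S replicate 1. In OCI-LY19R the member median turned to -0.003622 without OCI-LY19S replicate 1 and to -0.007922 in the authors' table (0.1057 at the high end, without OCI-LY19S replicate 2). The members' median relative to all genes turned to -0.05531 without OCI-LY19S replicate 1, -0.01559 without OCI-LY19R replicate 1 and -0.01644 in the authors' table (0.05316 at the high end, without OCI-LY19S replicate 2).

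The share of rises among all calls in OCI-LY3 was 73.9% as deposited, 51.5% with median-of-ratios and 50.9% with quantile scaling; in HT 70.9%, 55.9% and 52.2%; in OCI-LY19 59.3%, 51.9% and 44.7%; in OCI-LY19R 57%, 44.9% and 47%; in SUDHL5 48.4%, and 38.1% as TPM. The replicate block gave 8 risen and 18 fallen members in HT, 13 and 36 in OCI-LY3, 5 and 57 in OCI-LY19 and 5 and 30 in SUDHL5; apart from MRPS28 it ended no named call in HT.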
